A study of Mus musculus with 8 samples.

Results

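In cultured mouse spermatogonial stem cells, 744 broad domains of H3K79me2 had no overlapping peak after treatment with EPZ5676, an inhibitor of the methyltransferase DOT1L. These domains were chosen from the authors' control peak list as peaks on chromosomes 1 to 19 that were wider than 20000 bp and shared no base with any peak of the EPZ5676 list. They were 744 of 1573 broad control domains (47.3%, exact Clopper-Pearson 95% interval 44.8 to 49.8%) and 1.56% of all 47774 control peaks, yet they held 24.4 Mb, or 14.5% of the length that control peaks covered. Among all 46767 control peaks on these chromosomes, narrow ones included, 93.4% had no overlapping peak in the EPZ5676 list. Because the absence of a peak and the width chose the domains, both are given as a description and not as a finding, and the other 829 broad domains, which overlapped at least 1 EPZ5676 peak, serve as the comparison.

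H3K79me2 was mapped by chromatin immunoprecipitation and sequencing with the antibody ab3594 in 8 samples. They form 4 groups of 2, the immunoprecipitated and the input chromatin of control and of EPZ5676-treated cultures. All cells descended from testes of B6.129S7-Gt(ROSA)26Sor/J mice aged 7 days, a strain in which every tissue carries a LacZ reporter, and all had grown for 2 months without serum on a feeder layer of SNL 76/7 mouse fibroblasts with GDNF at 10 ng/mL and FGF2 at 0.5 ng/mL. Treated cultures then received 2 µM EPZ5676 for 7 days and control cultures received vehicle, after which chromatin was fixed in 1% formaldehyde for 10 min. The protocols call the vehicle DMSO while the short sample descriptions abbreviate it as EtOH, and they name no step that removed feeder cells. The values below rest on 1 peak list per condition, each recorded under replicate 1. Pooling of replicates was not given in the sources used here. There is therefore no spread between replicates, no test was made, and the read depth behind each list is unknown.

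DOT1L is the enzyme that methylates lysine 79 in the globular core of histone H3. The dimethyl mark it leaves is known to lie over the beginning of transcribed genes and to run downstream into their bodies, where DOT1L travels with elongation factors such as the AF9, AF10 and ENL proteins. Wide H3K79me2 domains are known as a feature of some highly transcribed genes, and the spermatogonial stem cell is the germ cell that renews itself and gives rise to sperm.

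The promoters of 4 leading genes show what lies at a listed start of such a gene. A leading gene is the protein-coding gene that shares most bases with the domain, and promoters are the RefSeq windows of GRCm38.p6 from 250 bases before to 50 bases after a listed start. They were found for 537 of 658 leading genes (81.6%). Foxo3 is shown because its widest domain lies against the gene start, and Bnc2 because its window is an internal listed start under its widest domain. Glis3 is shown because its listed start lies far outside its widest domain, and Gfra1 because it encodes the GDNF receptor of these cells. The Glis3 start lay instead under a control domain of 108061 bp that did overlap an EPZ5676 peak. Capitals mark GGGCGG, the GC box, or CCAAT, on either strand, with CCGCCC and ATTGG as their reverse complements.
Foxo3 promoter, chr10:42276646-42276945, minus strand: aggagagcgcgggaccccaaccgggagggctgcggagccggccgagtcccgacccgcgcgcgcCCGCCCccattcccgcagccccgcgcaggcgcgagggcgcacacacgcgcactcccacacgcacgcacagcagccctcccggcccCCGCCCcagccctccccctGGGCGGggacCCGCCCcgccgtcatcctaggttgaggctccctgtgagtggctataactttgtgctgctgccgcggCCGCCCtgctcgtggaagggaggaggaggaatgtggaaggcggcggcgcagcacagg
Bnc2 promoter, chr4:84610148-84610447, minus strand: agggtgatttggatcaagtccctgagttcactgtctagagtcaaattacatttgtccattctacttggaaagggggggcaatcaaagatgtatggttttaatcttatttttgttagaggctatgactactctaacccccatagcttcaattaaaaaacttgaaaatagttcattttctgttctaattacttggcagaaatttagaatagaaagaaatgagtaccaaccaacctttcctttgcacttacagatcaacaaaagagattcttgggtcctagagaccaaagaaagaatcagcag
Glis3 promoter, chr19:28680028-28680327, minus strand: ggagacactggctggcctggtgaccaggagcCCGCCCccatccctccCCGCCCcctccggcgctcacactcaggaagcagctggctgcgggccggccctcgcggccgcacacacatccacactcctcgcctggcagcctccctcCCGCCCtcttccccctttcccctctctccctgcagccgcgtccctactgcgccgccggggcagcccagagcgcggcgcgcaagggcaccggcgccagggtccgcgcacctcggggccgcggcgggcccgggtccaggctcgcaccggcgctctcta
Gfra1 promoter, chr19:58455349-58455648, minus strand: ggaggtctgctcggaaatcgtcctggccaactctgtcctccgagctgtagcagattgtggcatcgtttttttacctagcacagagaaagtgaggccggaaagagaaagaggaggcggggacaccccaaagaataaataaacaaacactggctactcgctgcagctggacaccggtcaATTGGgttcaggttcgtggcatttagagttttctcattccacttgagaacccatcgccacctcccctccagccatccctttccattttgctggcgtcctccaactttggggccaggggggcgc
The Foxo3 window held 35 CpG dinucleotides and 5 GC boxes, and its start lay 157 bp upstream of the edge of a 90112 bp domain. The Bnc2 window, at an internal listed start, held 0 CpG dinucleotides and 0 of the motifs searched. That start fell 64577 bp inside a 119350 bp domain, whose upstream edge lay 1255 bp into the gene. The Foxo3 and Bnc2 windows therefore do not compare gene starts. The Glis3 window held 32 CpG dinucleotides and 3 GC boxes, and the Gfra1 window held 12 CpG dinucleotides and 1 CCAAT match. Auts2, Zbtb16 and Chd7, which also lead domains among the 20 widest, are named only.

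Across the 537 promoters, most were rich in CpG. Their median ratio of observed to expected CpG was 0.858, against 0.885 for 653 promoters of the genes that lead broad domains with an EPZ5676 peak and 0.597 for 16457 promoters of autosomal protein-coding genes. A ratio above 0.6 was found for 84.0% of them, for 89.1% of the comparison promoters and for 49.8% of all. At least 1 GC box lay in 77.1%, 79.3% and 47.3% of the same 3 groups, and CCAAT in 36.3%, 32.5% and 39.1%. TATAAA, the TATA box, lay in 3.72%, 3.06% and 13.5%, and CACGTG, the E box bound by MYC and related factors, in 11.0%, 10.3% and 7.97%. Motif matches were counted on both strands and may overlap. Both sets of broad domains thus sat on genes with CpG-rich, TATA-poor promoters, and the gap between them was small beside their common distance from all promoters.

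Of 1136 autosomal miRNA genes, 10 (0.88%) lay under the comparison domains and 10 (0.88%) under the domains without an EPZ5676 peak. Each of the latter 10 precursors lay inside the leading gene, and in the 8 cases with a known gene strand it shared that strand. Their 15 mature forms had 15 different seeds, the stretch from base 2 to base 8 that pairs with target RNAs. The miR-423 arms, inside Nsrp1, a splicing regulator, and miR-7687-5p and miR-5128, inside the widest domains that hold a miRNA, are shown from RefSeq with the seed in capitals.
mmu-miR-423-5p, chr11:77078122-77078144, minus strand: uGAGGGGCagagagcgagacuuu
mmu-miR-423-3p, chr11:77078086-77078108, minus strand: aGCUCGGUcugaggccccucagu
mmu-miR-7687-5p, chr8:120538696-120538720, plus strand: aGGCGGGGaaccugaggcgcaggcu
mmu-miR-5128, chr2:37688212-37688234, minus strand: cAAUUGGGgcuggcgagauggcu
The Nsrp1 domain was 23787 bp wide with a fold enrichment of 4.45. The hosts of miR-7687-5p and miR-5128 were Gse1, a corepressor subunit, with 75709 bp, and Strbp, an RNA-binding protein of spermatids, with 56104 bp. A broad mark over a host gene says nothing of the level of the mature miRNA, which was not measured here.

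The domains were narrower than those with an EPZ5676 peak. Their width ran from 20013 to 130030 bp with a median of 28084 bp (quartiles 23259 and 36664 bp), against a median of 31732 bp (24696 and 43783 bp) and a highest width of 175983 bp in the comparison. The share of broad domains without an EPZ5676 peak was 53.6% (interval 49.1 to 58.1%) at 20 to 25 kb and 54.7% (49.1 to 60.3%) at 25 to 30 kb. It was 44.4% (39.2 to 49.6%) at 30 to 40 kb, 36.9% (31.1 to 42.9%) at 40 to 60 kb and 35.7% (27.4 to 44.6%) above 60 kb. The share was thus lower among the wider classes, which also hold more bases that a peak can touch, and the part of this in the trend was not tested. All intervals cover the sampling of domains only, and neighbouring domains are not independent.

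**Figure D1:**
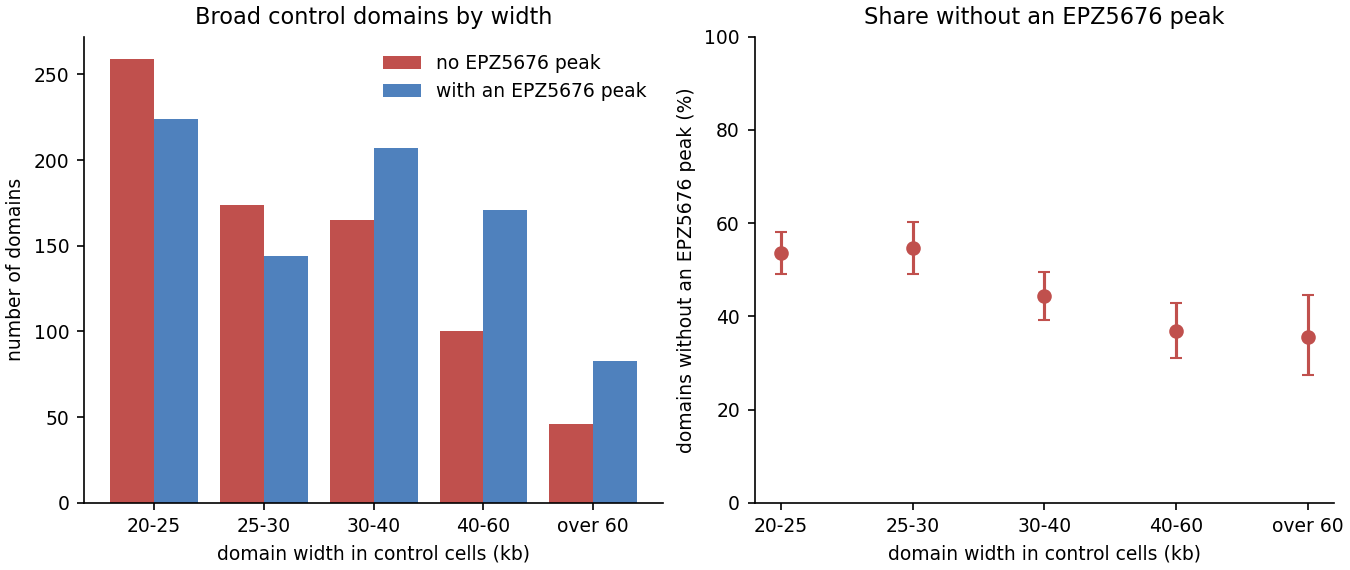
Number of broad control domains in 5 width classes (kb, horizontal axis) with and without an overlapping EPZ5676 peak (left), and the share without one in percent (right, points with exact 95% intervals). The share stands at 53.6% in the narrowest class and 35.7% in the widest.

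At the edge of the 20000 bp limit the domains differed by a few bases. Just inside were Zfp385b (20013 bp), Mtap (20014 bp), Phf3 (20017 bp), Maco1 (20017 bp) and Zfp217 (20030 bp). Just outside, also without an EPZ5676 peak, were Gtdc1 (19998 bp), Celf2 (19979 bp), Tmeff1 (19966 bp), Braf (19933 bp) and Brwd1 (19901 bp). The limit is thus a line through a continuous range of widths.

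Fold enrichment, the authors' ratio of signal to background for each peak, was lower in these domains. Its median was 3.88 (quartiles 3.27 and 4.69, range 2.42 to 8.89), against 5.00 (4.08 and 5.99) where an EPZ5676 peak overlapped and 2.30 over all control peaks. The difference stood in every width class, with medians of 3.83 and 5.14 at 20 to 25 kb and of 3.71 and 4.77 above 60 kb. Read by enrichment, the share without an EPZ5676 peak was 83.8% (114 of 136 domains) up to a fold of 3, 48.1% (205 of 426) between 4 and 5, and 17.7% (44 of 249) above 6. Within the 744 domains, width and fold were nearly unrelated (Spearman correlation 0.02 across domains of 1 list). Control enrichment moved with the absence of a peak, and its part in every comparison with the other broad domains below was not tested.

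**Figure D2:**
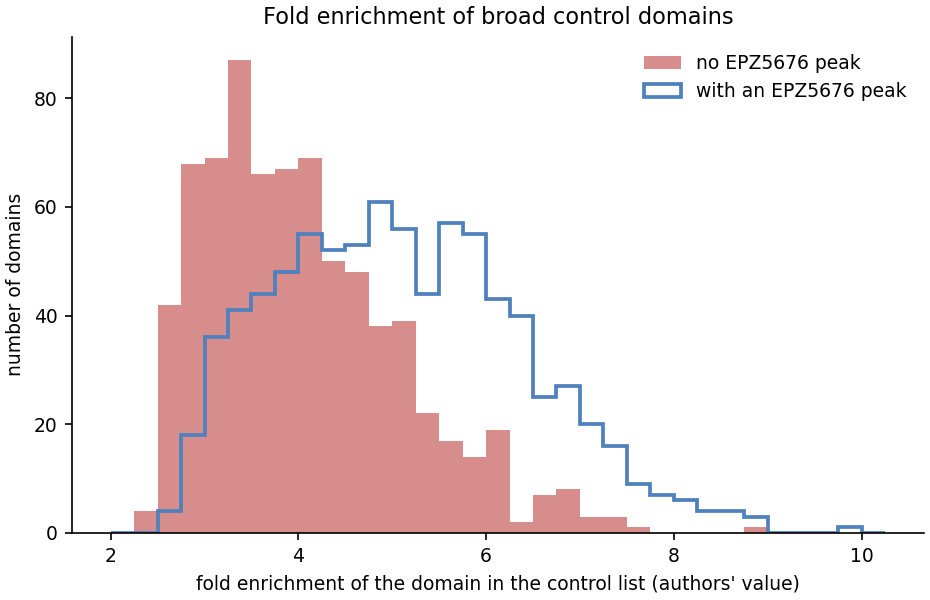
Number of broad control domains (vertical axis) by the authors' fold enrichment in the control list (horizontal axis), filled for domains without and outlined for domains with an EPZ5676 peak. The medians are 3.88 and 5.00, and the ranges overlap widely.

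How many domains lack a peak depended on which EPZ5676 peaks were counted. The EPZ5676 list held 9182 peaks with a median width of 402 bp, and its lowest −log10 q-value was 1.04, beside 1.05 in the control list. The authors' lowest −log10 p-value was 4.03 in the EPZ5676 list and 2.36 in the control list. All 744 domains reached the EPZ5676 floor of 4.03 in the control list. The part of this difference between lists in the absence of peaks was not tested. With only the EPZ5676 peaks of −log10 q of at least 2, 1431 of the 1573 domains (91.0%) had none, and with only those at least 500 bp wide, 1017 (64.7%). The 744 domains belong to both larger sets. Conversely, with only control peaks of −log10 q of at least 10, 380 domains were left, or 36.2% of those.

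The distance to the nearest inhibitor peak varied widely among these domains. The rule fixed only that it was above 0, and no reference distance was computed. The median was 125255 bp (quartiles 50667 and 258324 bp), and it exceeded 100 kb in 427 domains (57.4%). An EPZ5676 peak lay within 5 kb of 14. The nearest were beside Mpp5 (1266 bp), a polarity scaffold, Kpna3 (1419 bp), an importin, Scmh1 (1594 bp), a Polycomb protein, Ppp4r2 (1929 bp), a phosphatase subunit, and Fam171a1 (2456 bp). Among the farthest were Tle1 (2053848 bp), a Groucho corepressor, Slc4a7 (1636100 bp), a bicarbonate transporter, Taok3 (1408251 bp), a kinase upstream of Hippo, and Dmrt1 (1379881 bp). Dmrt1 encodes a testis transcription factor that governs the switch of spermatogonia into differentiation.

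Nearly all of the domains covered protein-coding genes. Of the 744, 729 (98.0%, interval 96.7 to 98.9%) shared at least 1 base with such a gene, and 667 (89.7%) lay wholly inside gene spans. All 829 comparison domains shared bases with a gene, and 92.6% lay wholly inside. A single gene was touched by 684 domains, 2 genes by 42 and 3 or more by 3. The 3 with most genes were led by Il4i1b (with Atf5, Il4i1 and Nup62), Chtf8 (with Derpc, Has3 and Utp4) and Gm21992 (with Rbm4 and Rbm4b), where a mark over neighbours cannot be assigned to a single gene. Positions refer to whole gene spans, since exons were not used here.

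By gene, 706 protein-coding genes had such a domain, which is 3.42% of the 20665 on these chromosomes. Broad domains with an EPZ5676 peak marked 857 genes (4.15%), and of the 1486 genes with any broad domain 47.5% had at least 1 without a peak. Both kinds lay over 77 genes, or 10.9% of the 706. Glis3, a Krüppel-like zinc finger factor, had 109413 bp without and 108061 bp with a peak, and Hdac4, a class II histone deacetylase, had 62784 bp and 53020 bp. For Magi1, a junction scaffold, the widths were 74281 bp and 46654 bp. On 125 of the 706 genes (17.7%) an EPZ5676 peak lay somewhere in the gene, so that the absence of a peak holds for the domain and not always for the gene.

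The genes under these domains were long. Counted once each, the 706 genes had a median length of 90327.5 bp, against 17491 bp over all autosomal protein-coding genes. Counted by domain, so that a gene with several domains enters several times, the leading gene had a median length of 103531 bp, against 83256 bp in the comparison. A domain without an EPZ5676 peak covered a median of 32.0% of its leading gene, against 43.4%. When all control peaks on the gene were counted, however, coverage was 57.5% and 59.8%, so similar shares of the genes were marked, but in more pieces (a median of 6 control peaks per gene against 4). Genes of 100 to 200 kb most often had such a domain (15.2% of 1368 genes), and genes up to 20 kb rarely (0.352% of 11090). Among genes with any broad domain, the share with 1 that lacked a peak was 54.2% (39 of 72) up to 20 kb, 41.4% at 20 to 50 kb, 40.04% at 50 to 100 kb, 54.2% at 100 to 200 kb, 64.8% at 200 to 400 kb and 73.5% (25 of 34) above 400 kb.

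Strand was known for the leading genes of 595 domains, which placed them along the gene. Of these, 359 (60.3%, interval 56.3 to 64.3%) began within 5 kb of the gene start, against 84.4% (81.4 to 87.1%) of 673 comparison domains. Another 225 (37.8%, 33.9 to 41.8%) began more than 5 kb downstream, against 14.6% (11.98 to 17.5%). The upstream edge stood a median of 881 bp into the gene, and 51 domains (8.57%) crossed the gene start itself. The typical domain thus opened just inside the gene, as is known of this mark, while more of the domains without a peak than of the others lay deeper in the gene body.

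**Figure D3:**
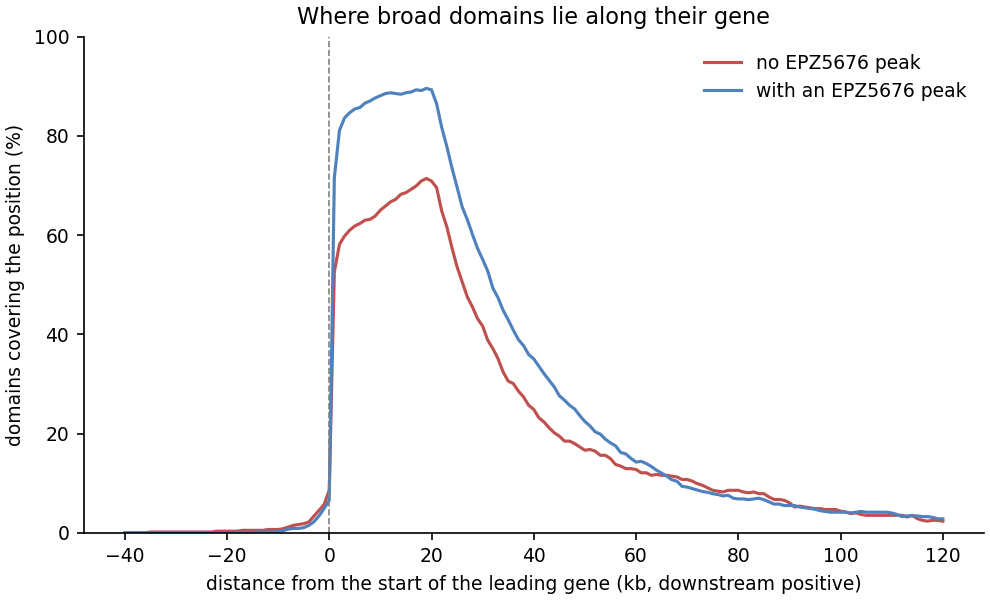
Share of broad domains (%, vertical axis) that cover each position along their leading gene (kb from the gene start, downstream positive, horizontal axis) for domains without and with an EPZ5676 peak. Coverage is highest 19000 bp downstream of the start in both, at 71.4% and 89.6%.

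Place and enrichment moved together. Domains without a peak that began at the gene start had a median fold of 4.28, and those that began over 5 kb downstream 3.27. Of the 927 broad domains at gene starts 38.7% lacked a peak, and of the 323 downstream 69.7% did. Up to a fold of 4, these shares were 56.5% (135 of 239) and 78.2% (179 of 229), and above it 32.6% (224 of 688) and 48.9% (46 of 94). Enrichment still varied on each side of that limit, and its part in the difference by place was not tested. Of the 225 downstream domains, 194 (86.2%) had another control peak at the start of the gene, and the gap to the next control peak upstream was a median of 758 bp. In 117 (52.0%) a further broad domain lay upstream in the same gene, and in 68 of these that domain did overlap an EPZ5676 peak. Most of the downstream domains thus followed other control peaks of the same gene, 141 of them at a gap under 1 kb.

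Several of the widest domains lay over regulators of transcription and chromatin. Others among the 20 widest lay over further kinds of gene, such as Fto (88706 bp) and Lrrc8d (80224 bp). Auts2, a partner of a Polycomb complex, held the widest, of 130030 bp (chr5:132317355-132447384) with a fold of 2.86, and others of 88480 and 45826 bp. Zbtb16, which encodes PLZF, a repressor needed to keep spermatogonial stem cells, held 127978 bp (chr9:48712619-48840596) with a fold of 5.11 and a further 40405 bp, which left 88.9% of the gene under such domains. Bnc2, a zinc finger gene, held 119350 bp (chr4:84555425-84674774), 38634 bp and 27023 bp. Glis3 followed with 109413 bp (chr19:28361103-28470515). Foxo3, a forkhead factor under PI3K and AKT control, was covered over 95.0% of its length by 90112 bp, and Dmrt1 over 84.1% by 83039 bp (chr19:25505937-25588975).

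**Figure D4:**
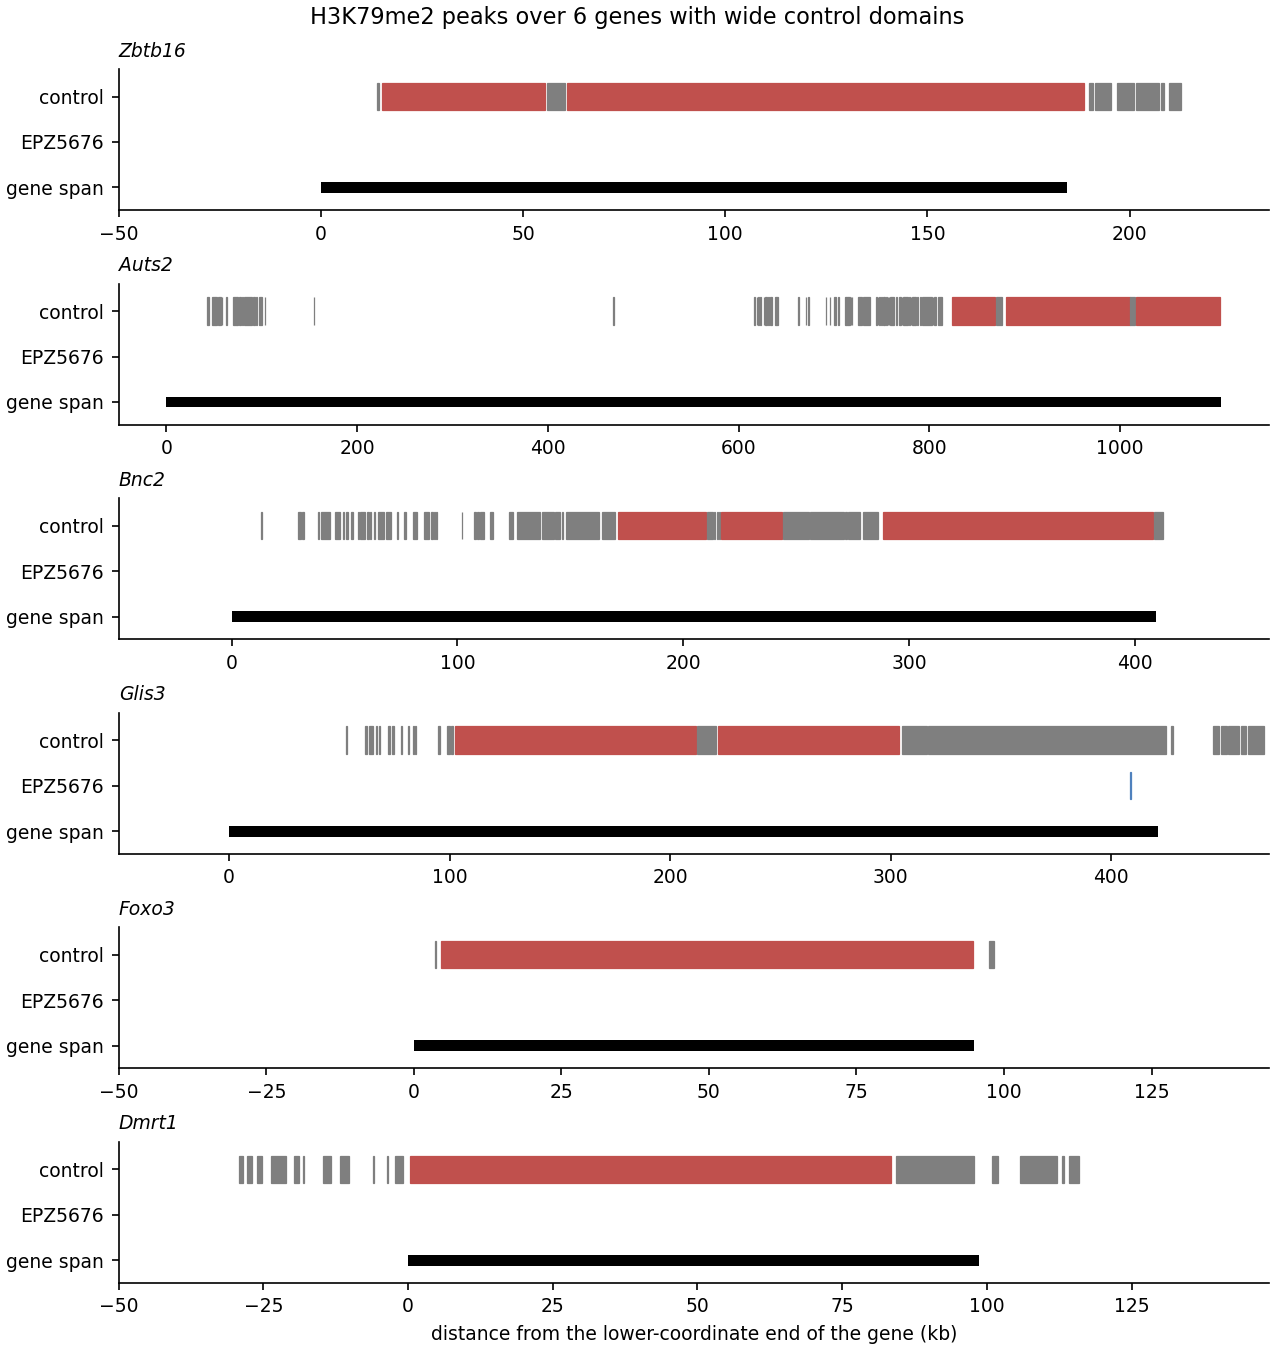
Control peaks, EPZ5676 peaks (blue) and gene span (black) at 6 genes, by distance from the end of the gene with the lower coordinate (kb, horizontal axis); red marks control domains over 20 kb without an EPZ5676 peak and grey all other control peaks. Only Glis3 has an EPZ5676 peak in view, inside its domain of 108061 bp, and Zbtb16 has 127978 and 40405 bp in red.

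The other domains among the 20 widest spread over several kinds of gene. Chd7 (91437 bp) encodes a chromatin remodeller, Mllt10 (83204 bp) the AF10 partner of DOT1L, Gse1 (75709 bp) and Cbfa2t2 (73136 bp) corepressors, and Fto (88706 bp) an RNA demethylase. Abtb2 (75344 bp) is a BTB domain protein, Lrrc8d (80224 bp) a subunit of volume-regulated anion channels and Magi1 (74281 bp) a scaffold of cell junctions. Arhgap26 (102145 bp), Zfand3 (85999 bp), Dip2b (76571 bp), 2900026A02Rik (82237 bp) and the second Glis3 domain (82144 bp) complete the set. Gse1 (fold 6.22) and Cbfa2t2 (6.03) were enriched most and Magi1 (2.72) least of the 20. By comparison, the widest domains with a peak lay over Igf1r (175983 bp), Rbfox2 (150918 bp), Ankrd11 (143341 bp), Rere (127114 bp) and Agap1 (124564 bp).

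The domains of highest enrichment were narrower and lay over other genes. Etf1, the translation termination factor, led with a fold of 8.89 over 22940 bp (chr18:34908886-34931825). The Il4i1b domain, which also covers the stress factor gene Atf5 and the nucleoporin gene Nup62, followed with 7.61. Mapk14, the p38 kinase, had 7.48 and Hic2, a BTB zinc finger repressor, 7.48. Stau1, which binds double-stranded RNA, had 7.40, Maco1 7.23, Trim71, the LIN41 protein of early germ cells, 7.21 over 51701 bp, and Il17rd, an inhibitor of FGF signalling, 7.06. A domain over Gm40353 and Pds5b, a cohesin regulator, had 7.00 and Camta1 6.95. These values are above the median of domains that did overlap an EPZ5676 peak (5.00), so low control enrichment was not shared by all of the domains.

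Some genes held several of these domains, 59 genes with at least 2 and a highest number of 4. Msi2, an RNA-binding protein of stem cells, held 71379, 35380, 27696 and 22325 bp. Sipa1l1, a Rap GTPase activator, held 56674, 39636, 26960 and 26929 bp, and Foxn3, a forkhead repressor, 45770, 40990, 33667 and 21345 bp. None of these 3 genes also had a broad domain with an EPZ5676 peak. Sipa1l1 did hold 2 EPZ5676 peaks outside its broad domains, and the nearest EPZ5676 peak lay 8244 bp from its domain of 56674 bp.

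The germ line genes with such a domain were Zbtb16, Gfra1, Dmrt1 and Elavl2. Of 30 genes of undifferentiated spermatogonia, Zbtb16 and Gfra1 (24365 bp, fold 2.88) had a domain without a peak (6.67%, against 3.42% of all protein-coding genes), and Foxo1, Itga6 and Itgb1 a broad domain with a peak, which makes 5 of 30 with any broad domain beside 1486 of 20665 over all genes. Another 18 had narrower control peaks only, such as Nanos3 (15565 bp), Taf4b (15518 bp), Etv5 (13548 bp) and Sall4 (11609 bp). Among 15 differentiation genes Dmrt1 had a domain without a peak and Rara, a retinoic acid receptor, a broad domain with one. Among 21 genes of germ cell identity and the piRNA pathway only Elavl2, a neuronal-type RNA-binding protein, did (63329 bp, fold 2.67). No gene of the 21 for meiosis or the 12 for spermiogenesis (median lengths 28187 and 6579.5 bp) had a broad domain of either kind. The widest control peaks there lay over Syce2 (7073 bp) and Crem (2890 bp).

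Marker genes were used to check the labelled cell type. All 10 germ cell markers, a short set taken partly from the lists above, in which 7 of 30, 2 of 15 and 4 of 21 genes had no control peak, had a control peak, with a median of 14343 bp covered, 2 (Zbtb16 and Gfra1) had a domain without an EPZ5676 peak, and 0 had an EPZ5676 peak. Of 24 fibroblast markers 17 had a control peak, with a median of 2024 bp, 0 had such a domain, and 7 had an EPZ5676 peak, among them Cald1, Twist2, Col5a1 and Fbn1. Col1a2, Col3a1, Vim, Lum, Dcn, Postn and S100a4 had no control peak. Of 19 markers of testis somatic cells 5 had a control peak, 0 such a domain and 1, Fshr, an EPZ5676 peak. Beyond the 10 germ cell markers, Foxo1, Itga6, Itgb1 and Rara of the germ line lists did overlap EPZ5676 peaks. The part of feeder chromatin in which domains had a peak was not tested.

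**Figure D5:**
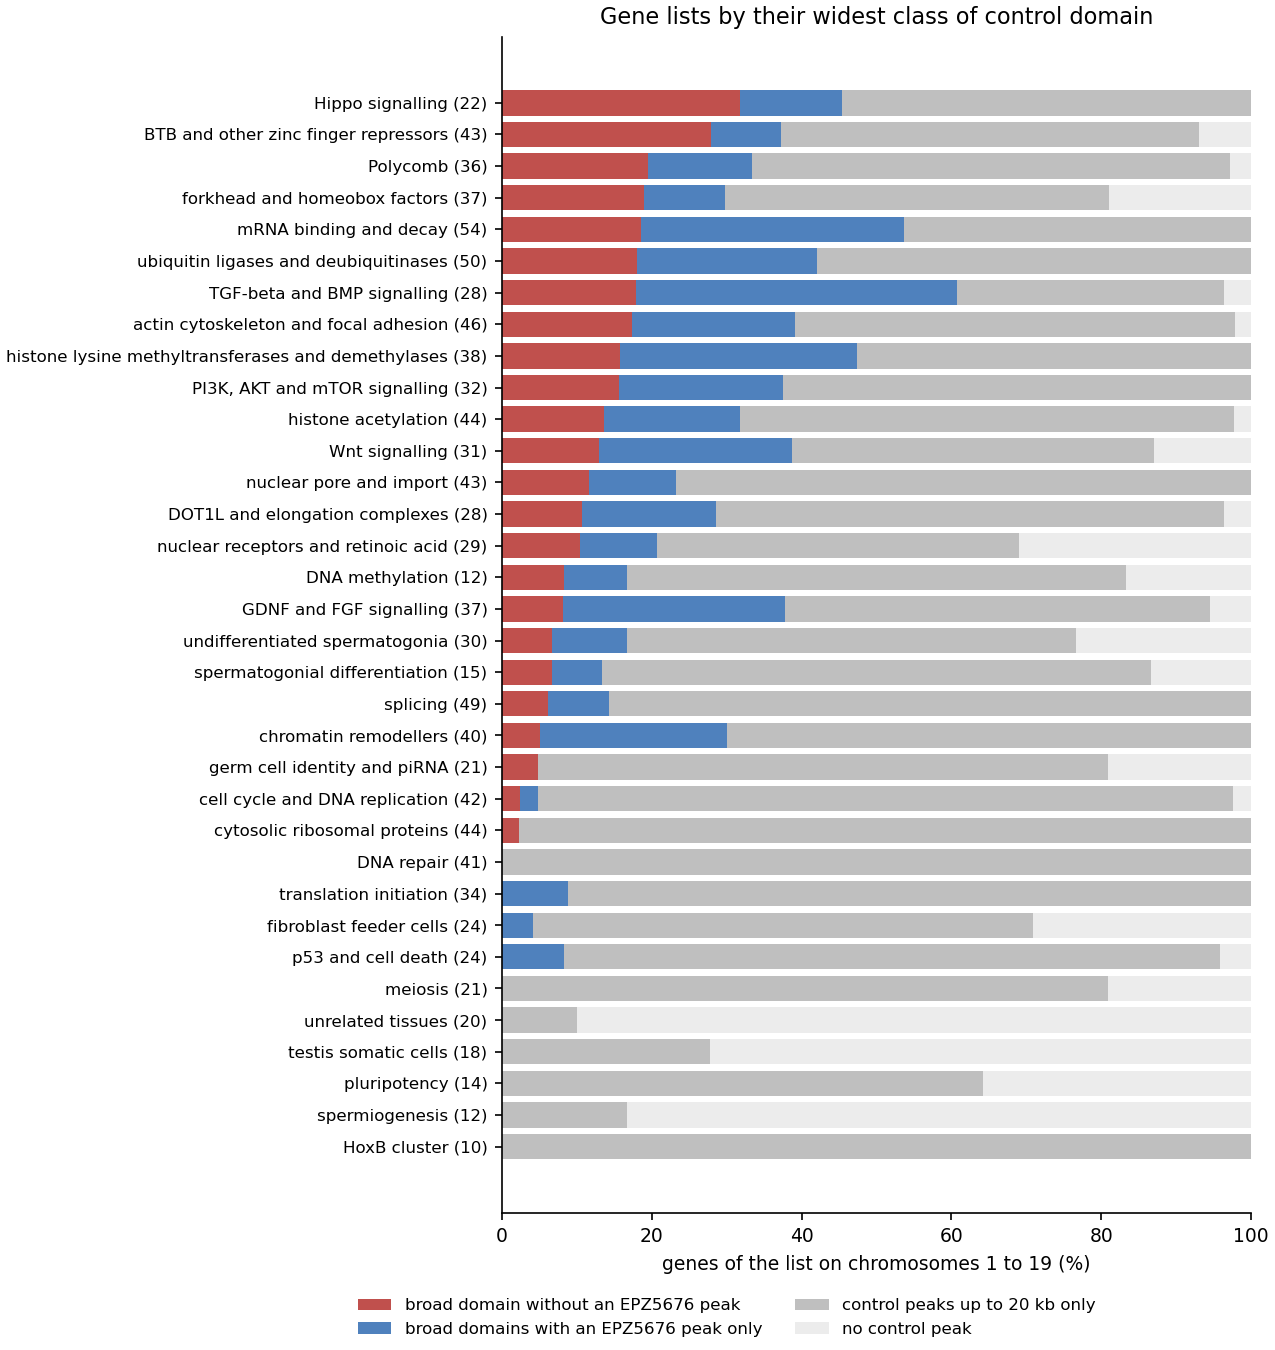
Genes of 34 lists on chromosomes 1 to 19 (%, horizontal axis; the number of genes stands after each name) by their class: with a broad domain that lacks an EPZ5676 peak (red), with broad domains that have one only (blue), with narrower control peaks only (grey) or with none (pale). Red is 31.8% for Hippo signalling and 27.9% for BTB and other zinc finger repressors.

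Over all 35 lists, 126 of 1086 autosomal genes (11.6%) had a domain without a peak, against 3.42% of all protein-coding genes. The lists and their members were chosen with earlier results of these data known, and the part of that choice was not tested. The excess and the shares of single lists below are therefore descriptions and not results about gene classes. The lists hold longer genes than the genome at large (for example a median of 90881 bp for ubiquitin ligases and deubiquitinases), length moved with the share, and its part was not tested. Counts below are therefore set beside each list's broad domains of the other kind, for which 47.5% over all genes is the reference. A gene with both kinds of domain enters both counts.

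Among 28 genes of DOT1L and elongation complexes 3 had a domain without a peak (10.7%, near the 11.6% over all lists) and 5 had broad domains with one, so 37.5% of those with any broad domain had one without a peak. The 3 were Mllt10, Mllt1 (32870 bp, fold 5.08), which encodes ENL, and Aff3 (28210 bp, fold 3.71), a scaffold of the super elongation complex family. Ell, Aff1, Rtf1 and Ccnt2 were among the 5 with a peak. Dot1l itself had a widest control peak of 13135 bp and so no broad domain.

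Other chromatin genes divided between both kinds. Of 36 Polycomb genes 7 had a domain without a peak, with a median widest width of 29082 bp close to the 28084 bp of all such domains, and 6 had a broad domain with one. Yaf2 (48744 bp) and Asxl1 (43408 bp) were covered over 91.8% and 74.6% of their length, and Jarid2 had 29082 bp without and 85196 bp with a peak. Of 38 lysine methyltransferases and demethylases 6 had a domain without a peak, the widest over Kdm2a (33624 bp), Kmt2e (30005 bp), Kdm7a (29146 bp) and Nsd1 (22279 bp), and 12 with one. Of 40 chromatin remodellers 2 did, Chd7 and Baz1b (20939 bp), and 10 had a broad domain with a peak, so 16.7% of the remodeller genes with a broad domain had one that lacked a peak. Histone acetylation genes counted 6 of 44, led by Gse1, Hdac4, Ncoa2 (54228 bp) and Ep300 (22785 bp), beside 11 of the other kind (3 had both). DNA methylation genes counted 1 of 12, the dioxygenase gene Tet3 (36623 bp), beside 1 of the other kind (50% of 2 with any).

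Several transcription factor genes held wide domains without a peak. Of 43 BTB and other zinc finger repressors 12 had such a domain and 8 a broad domain with a peak (4 had both), which makes 75% of the 16 genes with any. Zbtb16, Bnc2, Zfp704 (44433 bp) and Sp3 (36815 bp, 83.6% of the gene) were widest. Of 37 forkhead and homeobox factors 7 did, with Foxo3, Pou2f1 (52659 bp), Foxn3 and Foxk1 (26139 bp) at the head. The other kind lay over 5, and 1 of them, Pou2f1, had both. Of 29 nuclear receptor genes 3 did, namely Nr3c1, the glucocorticoid receptor (54713 bp), Ppard (24051 bp) and Nr6a1, the germ cell nuclear factor (23145 bp). A broad domain with a peak lay over 3 others, so 50% of the 6 with any had one without a peak. No gene of the HoxB cluster (median length 3966 bp) had a broad domain, and the widest control peak there was 14809 bp over Hoxb3.

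Signalling genes held broad domains of both kinds. For GDNF and FGF signalling, the pathways supplied in the medium, 3 of 37 genes had a domain without a peak and 12 had one with, so 21.4% of the 14 genes with any lacked a peak on at least 1. These were Gab1, a docking protein (66879 bp), Fyn, a SRC family kinase (29091 bp beside 86215 bp with a peak), and the receptor gene Gfra1. For Hippo signalling, 7 of 22 genes had a domain without a peak and 3 had one with, or 70% of 10. Yap1, the transcriptional effector, had 48127 bp over 66.3% of the gene, and the kinase genes Stk3, Taok3, Lats2 and Taok1 had 31023, 27792, 25771 and 20858 bp. Mob1b (25448 bp) and Nf2 (24403 bp) made up the 7. With so few genes the shares are coarse, and no test was made between lists.

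In the PI3K, AKT and mTOR list 5 of 32 genes had a domain without a peak and 9 a broad domain with one. Igf1r and Rptor had both. Foxo3 stood beside Igf1r (40153 bp without, 175983 bp with), Rptor (37164 bp), Mapkap1 (26602 bp) and Pdpk1 (24951 bp), which encode a receptor, subunits of both mTOR complexes and the kinase that activates AKT. In the Wnt list 4 of 31 did, the ligase gene Znrf3 (62536 bp), the corepressor genes Tle1 (41893 bp) and Tle3 (30415 bp) and the receptor gene Fzd3 (23074 bp), and 8 had the other kind. In the TGF-beta and BMP list 5 of 28 did, Smad3 (57965 bp), Bmpr2 (49129 bp), Zeb1 (28312 bp), Acvr2b (24873 bp) and Acvr1b (20320 bp). The other kind lay over 14 genes of this list, among them Smad3 and Zeb1, which had both. In each of these 3 lists more genes had a broad domain with an EPZ5676 peak than without, as was also so over all genes (857 and 706). Of the genes with any broad domain, 41.7% of 12, 33.3% of 12 and 29.4% of 17 had one without a peak, against 47.5% over all genes.

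Genes of the cytoskeleton and of nuclear transport also held domains of both kinds. Of 46 genes of the actin cytoskeleton and focal adhesion 8 had a domain without a peak and 13 a broad domain with one (3 had both). The 8 were led by Evl (60202 bp) and Enah (60086 bp), which regulate actin filament growth, and Tns3 (50802 bp). Nuclear pore and import genes counted 5 of 43, Nup93 (57312 bp), Xpo7 (31764 bp), Kpna3 (31297 bp), Kpna4 (24092 bp) and Nup62 (23217 bp, in the Il4i1b domain), beside 5.

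Genes that act on RNA and proteins varied. Of 54 genes of mRNA binding and decay 10 had a domain without a peak and 22 one with (3 had both). Msi2, Elavl2, Trim71, covered over 96.5%, and Tnrc6b (42906 bp), a partner of Argonaute, were widest. Of 50 ubiquitin ligases and deubiquitinases 9 did, among them Cblb (52982 bp), Nedd4l (41144 bp) and Usp7 (36211 bp), beside 14 (2 had both). The Usp7 domain lay mostly beyond the gene and covered 1.53% of it. Of 49 splicing genes 3 did, Luc7l2 (32737 bp), Sf3b3 (26555 bp) and Hnrnpc (20032 bp), beside 4 of the other kind (42.9% of 7 with any).

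Among genes of general cell functions, many of them short, domains without a peak were few. Of 44 ribosomal protein genes Rps14 did (21482 bp, over 93.5% of the gene), and of 42 cell cycle genes Ccnd3 (31707 bp). A broad domain with a peak lay over 0 ribosomal protein genes and 1 cell cycle gene. No gene of 41 for DNA repair, 24 for p53 and cell death or 34 for translation initiation had a domain without a peak. Blm (19879 bp) and Rad51c (17770 bp) came closest among repair genes, whereas Bcl2l1 (49113 bp), Sesn1 (28665 bp), Eif3h (65949 bp) and Eif4e (23965 bp) had broad domains that overlapped an EPZ5676 peak. None of the 14 pluripotency genes or 20 genes of unrelated tissues had a broad domain. Median gene length was 3310.5 bp for ribosomal protein, 14106.5 bp for cell cycle, 18275 bp for translation initiation and 11250.5 bp for pluripotency genes. These medians are below the width limit of 20000 bp. A broad domain can still reach over a shorter gene, and 72 of 11090 genes up to 20 kb had one of either kind. For DNA repair genes the median was 51182 bp. The part of gene length in these counts was not tested. Among families named by symbol, 0 of 1104 Olfr and 0 of 354 Vmn receptor genes had a broad domain of either kind. Their median lengths were 950 and 961.5 bp. Of 54 Arhgap and Arhgef genes 8 had a domain without a peak and 12 one with, and of 41 Fox genes 5 and 2.

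The domains that touched no protein-coding gene numbered 15, and 14 of them lay over an annotated lncRNA. Of these, 10 fell on 3 loci. 2610035D17Rik (chr11:113043906-113201838) held 4 domains of 126515 bp in sum, 2610307P16Rik, on chromosome 13 with Sox4 as the nearest protein-coding gene, held 3 of 141049 bp, and Lncpint, a p53-responsive lncRNA on chromosome 6, held 3 of 130402 bp. The widest was 72750 bp (chr13:28812244-28884993). Their median fold was 3.34, and 1 domain of 20744 bp, nearest to Zfat, had no listed lncRNA. All broad domains outside protein-coding genes on these chromosomes were without an EPZ5676 peak, a count of 15 that is small beside the 744.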

How the data were processed

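H3K79me2 peak lists of 1 control and 1 EPZ5676 sample were analysed. The submitters' processing notes name the mm10 build and the tools deepTools, Trimmomatic and bcl2fastq (version 2.20.0.422). Aligner and peak caller were not given in the sources used here. Both lists come without a header, in a broad peak layout of 9 columns. For each peak the authors deposited a score, a fold enrichment (a ratio of signal to background) and −log10 p- and q-values, which served only to describe, rank or filter peaks within a list. No column of sample values was left unmapped (0).

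An overlap was a shared stretch of 1 bp or more, computed in Python 3.11.15 with numpy 2.4.6, pandas 2.3.3, scipy 1.17.1 and matplotlib 3.10.9. The overlap, gene assignment and interval functions were checked on simulated data. Genes, promoters and miRNAs came from RefSeq tables of GRCm38.p6, the assembly that mm10 names. Strand came from the promoter table, which covers 79.6% of the 20665 autosomal protein-coding genes, and a gene start is the 5′ end of the RefSeq span. Gene lists (35, with 1116 different genes) and members were chosen with earlier results of these data known.

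Named genes are the 20 widest domains, the 10 of highest fold, the 5 on each side of the width limit, the 5 nearest to and 5 farthest from an EPZ5676 peak, the widest without a protein-coding gene, the 3 over most genes, the 3 genes with most domains, and up to 4 of each list by widest domain. The Taok1, Mob1b, Nf2 and Acvr1b domains, the miRNA hosts, the genes with both kinds of domain and the genes of the comparison domains in lists were named beside counts after their values were seen. Alternatives changed the width limit, the peaks counted, the joining of peaks, the chromosomes and the gene assignment. Depth is unknown, and inputs and second replicates were not analysed here. Some named genes and the values of 1 gene list are not reported here.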

Additional observations from a re-analysis of the deposited data

How the results depend on the processing

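Of 108 summary values recomputed under 9 alternatives, 68 stayed within their limits (1.5 times for counts, the 95% interval for shares and medians) and 40 moved. Counts of list genes with a domain, 1 for each of the 35 lists and each alternative, stayed in 227 of 315 cases and moved in 88. Of 46 named domains, 31 remained at a width over 30000 bp, 25 with control peaks of −log10 q of at least 10 and 41 with no EPZ5676 peak within 5000 bp. After joining, 23 remained, where a joined domain was matched only by its first peak. All 46 remained under the other alternatives, none of which can remove a domain, so this was fixed in advance. At a width over 15000 bp there were 1303 domains (54.3% of broad domains), with a median width of 21544 bp, 1199 genes and 29.1% of the leading gene covered. Over 30000 bp there were 311 (40.3%), with 39345 bp, 304 genes, 36.4% covered and 69 list genes. With only EPZ5676 peaks of −log10 q of at least 2 there were 1431 (91.0%), with a median width of 29418 bp, fold of 4.35, 99.0% over a protein-coding gene, 1350 genes, 2.97% with a peak elsewhere in the leading gene, 1174265 bp to the nearest peak, 38.1% of the gene covered, 71.2% at the gene start and 254 list genes. With only EPZ5676 peaks of at least 500 bp, 64.7% lacked a peak, fold was 4.09, 10.7% had a peak elsewhere in the gene, the distance was 271193 bp, 35.0% of the gene was covered and 65.6% lay at the gene start. With only control peaks of −log10 q of at least 10 there were 380 (36.2%), with a fold of 4.67, 99.2% over a gene, 404 genes, 8.49% with a peak elsewhere in the gene, 43.5% covered, 80.6% at the gene start and 68 list genes. With control peaks under 1000 bp apart joined, the share was 50.4%, 14.7% had a peak elsewhere in the gene and 35.1% of the gene was covered. Fewer or more peaks enter these sets by construction, and beyond that the cause was not tested. Adding chromosome X (753 domains), asking for no EPZ5676 peak within 5000 bp (730) and a stricter gene assignment (744) moved none of the 12 summary values each. Chromosome X has no EPZ5676 peak, so its 9 broad domains entered by construction. The gene assignment cannot change the number, width, fold or peak distance of the domains.

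No paired analysis was possible because each condition has 1 peak list and the results come from no test; leaving out a replicate could not be run for the same reason. Depth is unknown, so an absent EPZ5676 peak says only that the authors' calling listed none there, not that the mark was gone.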

Other observations

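Non-coding genes under the domains without an EPZ5676 peak were mostly lncRNAs. In all, 139 lncRNA genes lay under 129 of the domains (17.3%), against 125 under 118 comparison domains (14.2%). These were 1.12% and 1.01% of 12408 autosomal lncRNA genes. Airn, the antisense lncRNA of the imprinted Igf2r locus, lay under a domain of 30399 bp with a fold of 5.97, and Kcnq1ot1, the antisense lncRNA of Kcnq1, under a domain of 36881 bp with a fold of 3.76. A peak has no strand, so the mark cannot be assigned to the lncRNA or to its coding partner. Genes of snoRNAs numbered 9 and 17 under the domains without and with an EPZ5676 peak (0.70% and 1.32% of 1286). For snRNA genes the counts were 9 and 21 (0.97% and 2.26% of 931), and for tRNA genes 0 and 0. The domains with a peak cover more length (31.4 Mb against 24.4 Mb), and its part in these counts was not tested.

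By chromosome, the share of broad domains without an EPZ5676 peak ran from 30.9% on chromosome 3 (21 of 68, exact 95% interval 20.2 to 43.3%) to 60% on chromosome 14 (36 of 60, 46.5 to 72.4%). Chromosome X had 9 broad control domains and no EPZ5676 peak in the list.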
